A study of Gallus gallus and Anas platyrhynchos and Coturnix japonica with 11 samples.

Results

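Star strands that the study marked as not yet annotated in chicken were followed in the frontonasal prominence (FNP), the embryonic swelling that forms the mid and upper face. They comprised every miRNA that the deposited tables mark with the suffix ukstar, 30 of the 186 miRNAs listed, and they are written here with an asterisk (miR-30e*). The marking is the study's own and was not checked against a database; for miR-2954* the study also lists a miRBase identifier. The marking is not known to use their level in these libraries. A star name, which these strands have in other vertebrates, usually belongs to the lower strand of a pair, and level also had a part in the listing. The study's threshold was more than 15 reads per 1000000 in at least 1 library, so a strand low in 1 species could be listed through another. The levels and ratios below are those of all 30 marked strands. A partner strand of the same name was listed for 23 of them, a partner without the copy number or letter for 5 (miR-135a-3*, miR-30c-1*, miR-30c-2*, miR-7-1* and miR-460a*), and none for 2 (miR-135b* and miR-193a*). The 28 pairs that this gives were compared with the 12 pairs in which a star strand had a name already and the 7 pairs listed as 3p and 5p arms. Levels are given in PMMR, which is reads per 1000000 total reads of a library, and the ratio of a star strand to its partner is given in percent of the partner.

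FNP mesenchyme was taken from chicken (Gallus gallus), quail and duck embryos at Hamburger-Hamilton stage 20 (HH20) and stage 25 (HH25), which number the development of the chick. No embryo received an agent or carried an engineered allele, and surface ectoderm and forebrain neuroectoderm had been removed from the mesenchyme. A first sample was a pool of 40 embryos, while a second sample, which only chicken and duck have, was a pool of 5. Chicken and duck therefore had 4 samples each and quail had 2, and averaging the repeat runs of 1 chicken sample (the second at HH25) gave 10 samples from 11 libraries.

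A miRNA hairpin is cut by Dicer into a duplex of a pair of short strands. One of them is usually loaded into Argonaute and guides it to target messages through bases 2 to 8, the seed, while the other, the star or passenger strand, is usually degraded. Which strand is retained depends on the stability of the duplex ends and on the first base, and a star strand that is retained carries its own seed and so its own set of possible targets.

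The strands that the results turn on are shown with their partners, 5′ to 3′, with the seed in capitals. They are the 5 strands with a mean ratio above the partner, the 3 whose ratio differed between species, miR-2954*, and the near-identical strands.
miR-144*: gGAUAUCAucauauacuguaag
miR-144: cUACAGUAuagaugauguacuc
miR-2131*: cUGUUACUguucuucugaug
miR-2131: aUGCAGAAgugcacggaaacagc
miR-221*: aCCUGGCAuacaauguagauuu
miR-221: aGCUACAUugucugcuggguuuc
miR-193b*: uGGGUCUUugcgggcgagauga
miR-193b: aACUGGCCcacaaagucccgcuuu
miR-460a*: cACAGCGCauacaauguggauu
miR-460: cCUGCAUUguacacacugugug
miR-301*: uCUGACAAuguugcacuac
miR-301: cAGUGCAAuaauauugucaaagcau
miR-106*: cUGCAGUAuaagcacuucuggc
miR-106: aAAAGUGCuuacagugcaggua
miR-2954*: gCUGAGAGggcuuggggagagga
miR-2954: cAUCCCCAuuccacuccuagca
miR-30e*: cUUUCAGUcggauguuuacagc
miR-30d*: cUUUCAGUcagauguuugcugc
miR-30a-3p: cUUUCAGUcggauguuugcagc
miR-18a*: aCUGCCCUaaaugcuccuucugg
miR-18b*: cUGCCCUAaaugcuccuucu
miR-135a-3*: aUGUAGGGcgaaaagccaugg
miR-135b*: aUGUAGGGcuaaaagccauggg

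Each of the 28 strands with a partner could be paired with it as a duplex. An antiparallel alignment that allowed G-U pairs and bulges paired 15 to 20 bases (median 17) of star strands that were 19 to 23 bases long. Unrelated strands were not aligned for comparison, so this does not test whether the listed partners are the right ones. The first base was C in 14 of these star strands, A in 7, G in 4 and U in 3, while 16 of the 28 listed partner entries began with U. Among the 156 listed miRNAs that were not ukstar strands, 82 (52.6%) began with U.

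The partners fell into seed families more often than the star strands did. The 28 partner entries carried 19 different seeds and the 28 star strands 26. Within the 6 partner seeds that were shared by more than 1 pair, 15 star strands carried 13 seeds. miR-130a, miR-130b and miR-301 share the seed AGUGCAA, for example, and their star strands have a different seed each. Star strands shared a seed only as miR-30d* with miR-30e* (and with miR-30a-3p), as miR-30c-1* with miR-30c-2*, as miR-135a-3* with miR-135b*, and as miR-193a* with miR-193b*.

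Some of these sequences could not be told apart, or only by 1 or 2 bases, and reads had been mapped with 0 to 2 mismatches. miR-193a* and miR-193b* were the same 22 bases and had identical values in every library, so that they are 1 measurement, entered under both names, and the 30 names hold 29 sequences. The 20 bases of miR-18b* lie within miR-18a*, starting 1 base later. miR-135b* differed from miR-135a-3* at 1 base over 21, miR-30e* from miR-30a-3p at 1 base over 22, and miR-30d* from miR-30a-3p at 2 bases. Some partners were near-identical too: miR-19a and miR-19b, miR-18a and miR-18b, and let-7a and let-7c each differ at 1 base. How a read that matched both members of such a set was assigned is not given in the sources used here.

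The values of near-identical strands moved together to different degrees. The ratio of miR-30e* to miR-30a-3p ranged from 0.597 to 0.851 over the 10 samples, a 1.43-fold range, while miR-30e* itself ranged over 3.49-fold and miR-30a-3p over 4.34-fold. The ratio of miR-18b* to miR-18a* ranged from 0.552 to 0.884, against an 8.47-fold range of miR-18b*. The ratio of miR-135b* to miR-135a-3* ranged from 0.0922 to 0.333, a 3.62-fold range. The strands themselves ranged over 30.2-fold and 28.2-fold, both highest in the first chicken sample at HH25. The ratio of miR-30d* to miR-30a-3p ranged from 0.00256 to 0.00754, a 2.94-fold range, against 4.07-fold for miR-30d*.

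Together the 29 sequences held 639997 of 61772927 reads, or 1.04%, with 0.666% to 1.52% in single libraries. Library totals ran from 3097711 to 10894243 reads, which makes 1 read worth 0.0918 to 0.323 PMMR, and every value was a whole number of reads within 0.06 of a read. The smallest value of any strand was 5 reads, for let-7a* in the first duck sample at HH20. The first chicken sample at HH25 stood apart: 51 of the 186 miRNAs, 7 of the 30 strands among them, were there over 4-fold away from their mean elsewhere, and in no other sample were more than 15. The mesenchymal markers miR-199 and miR-199* summed to 315 PMMR there and to between 6277 and 24112 elsewhere, and 5 neural miRNAs to 3520 PMMR against 658 to 1858. Over all 10 samples the endothelial miR-126 and miR-126* summed to 4992 to 40678 PMMR, 5 miRNAs of surface ectoderm to 62.6 to 1915, 3 of white blood cells to 72.4 to 675 and 2 of muscle to 43.6 to 511, so that markers of other cell types were read in every sample. Their part in the values below was not tested.

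Levels of the star strands ranged widely. The mean over the 10 samples was above 1000 PMMR for 3 strands, between 100 and 1000 for 13 and below 100 for 14. The 6 highest strands (miR-30e*, miR-144*, miR-125b*, miR-221*, miR-2954* and miR-130b*) held 82.2% of the reads of the 29 sequences. A level above 15 PMMR in every sample was reached by 20 of the 30 strands.

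**Figure D1:**
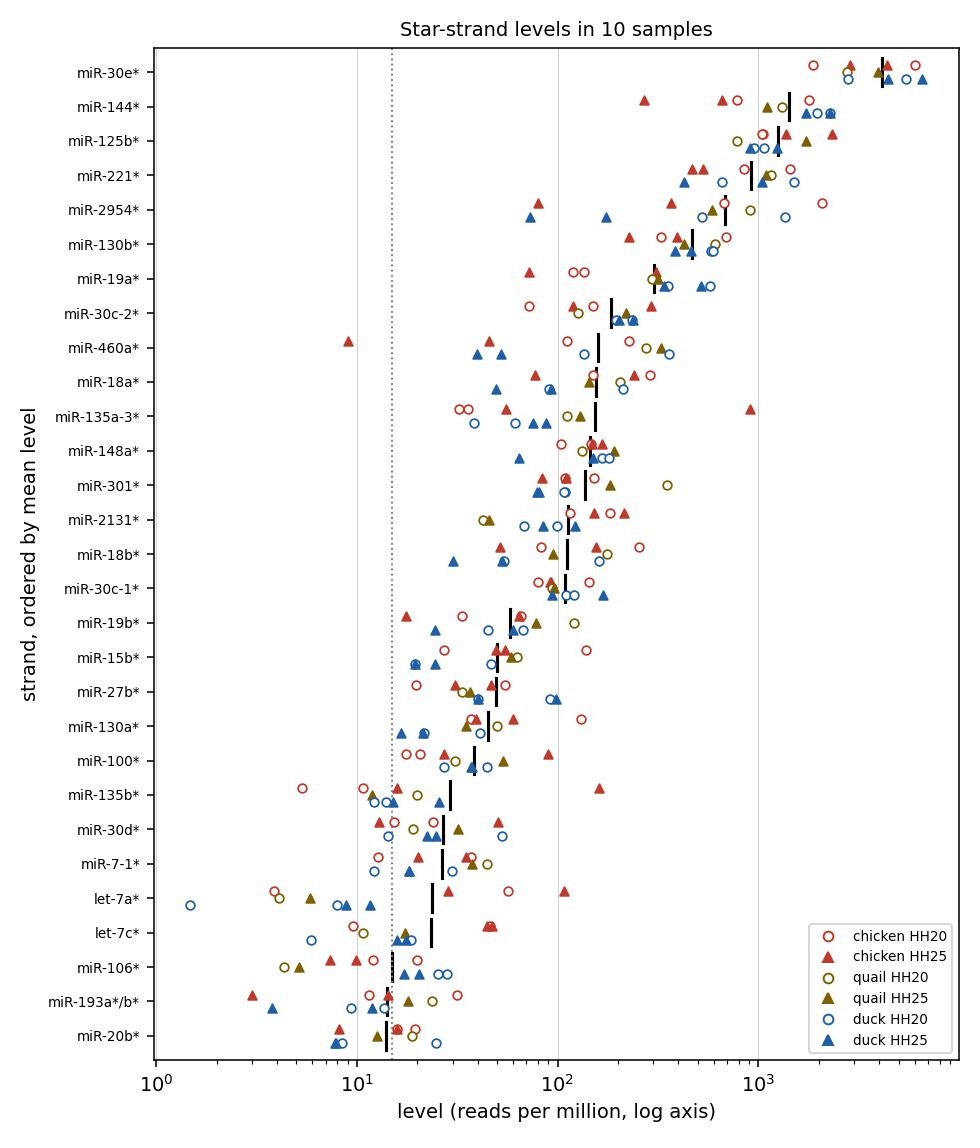
Level of the 29 distinct star strands in PMMR (reads per 1000000 reads, log axis) in each of the 10 samples, with open circles for HH20, filled triangles for HH25 and a colour for each species; the black bar is the mean and the dotted line marks 15 PMMR. miR-30e* lies highest, between 1882 and 6567 PMMR, and the first chicken sample at HH25 gives the isolated points of miR-135a-3* at 907 and miR-460a* at 9.02 PMMR.

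miR-30e*, a strand of the miR-30 family that is associated with epithelial state and differentiation, was the most abundant at 4108 ± 1553 PMMR (SD, n = 10) and the 33rd of all 186 miRNAs. It measured 1882 and 6007 PMMR in the first and the second HH20 sample of chicken, 4385 and 2849 in those at HH25, 2772 and 3938 in quail at HH20 and HH25, 2804 and 5457 in duck at HH20, and 6567 and 4424 in duck at HH25. Its lowest and its second highest value were thus samples of the same group, and no group lay apart.

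miR-125b*, from a hairpin whose main strand restrains p53 and is common in neural and mesenchymal tissue, had 1057 and 1038 PMMR in chicken at HH20, 2341 and 1371 in chicken at HH25, 782 and 1733 in quail, 1063 and 957 in duck at HH20, and 909 and 1244 in duck at HH25. Its mean was 1249.6 ± 469 PMMR (SD, n = 10), with the first chicken sample at HH25 highest and the other groups overlapping. miR-130b* had 327 and 688 PMMR in chicken at HH20, 227 and 395 in chicken at HH25, 606 and 425 in quail, 579 and 598 in duck at HH20, and 384 and 462 in duck at HH25.

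The remaining star strands of the miR-30 family were far lower. miR-30c-2* averaged 185 PMMR, miR-30c-1* 109 and miR-30d* 26.8, while their partners averaged 2828 (miR-30c) and 10159.8 PMMR (miR-30d). The star strands of let-7, a family that rises as cells differentiate, were among the lowest at 23.7 PMMR (let-7a*) and 23.3 PMMR (let-7c*), against 18405 and 18669 PMMR for let-7a and let-7c.

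The name star strand implies the lesser strand of a pair, so that a ratio below 1 was in part set by the naming. In most pairs the star strand was the lower. In 21 of the 28 pairs the star strand lay below its partner in all 10 samples. The mean ratio was under 1% in 7 pairs, 1% to 10% in 11, 10% to 100% in 5 and above 100% in 5, with a median of 5.22%. Averaged over the 6 groups, limma's test against a ratio of 1, with Benjamini-Hochberg adjustment over all 47 pairs, called 27 of the 28, where 97.9% of all pairs were called. It called 23 below the partner, where 80.9% of all pairs tested were called lower, and 4 above it, where 17% were called higher. miR-460a* was not called. A partner can come from more than 1 hairpin, which can lower the ratio of a star strand from 1 of them. miR-30c is the partner of both miR-30c-1* and miR-30c-2*, and miR-125b is also that of the named miR-125b-1*. The partners of miR-135a-3* and miR-7-1* lack the copy number, and a numbered let-7a gene lies beside miR-100. These ratios need not be those of the strands of 1 duplex.

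**Figure D2:**
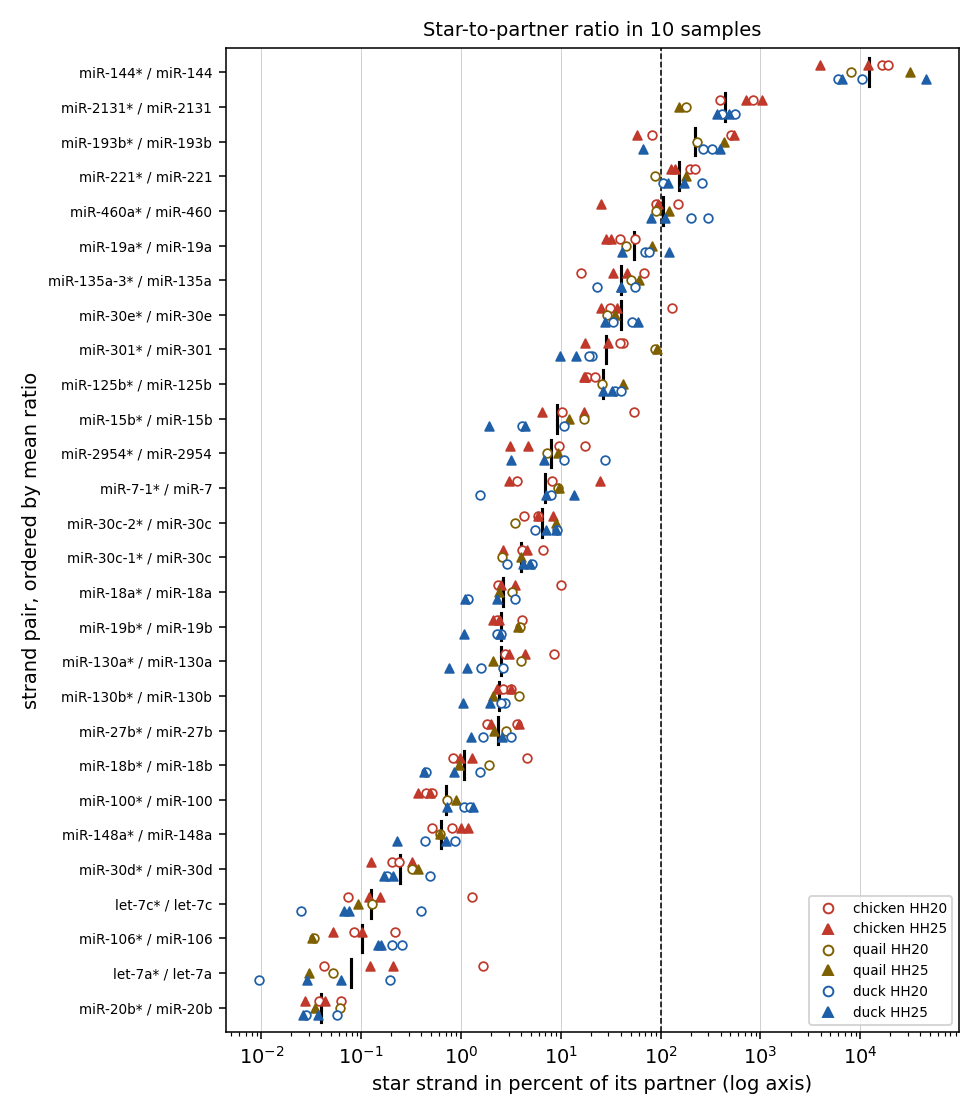
Star strand in percent of its partner (log axis) for the 28 pairs in each of the 10 samples, with open circles for HH20, filled triangles for HH25 and a colour for each species; the black bar is the geometric mean and the dashed line marks equal levels. miR-144* and miR-2131* lie right of the line in all 10 samples, miR-221* in 9, miR-193b* in 7 and miR-460a* in 5, and miR-20b* lies lowest at a mean of 0.0395%.

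In 5 pairs the mean ratio lay above 100%, and it was highest for miR-144*. The miR-144 and miR-451 hairpins neighbour each other in the chicken genome (GRCg7b assembly) and are known for their expression in red blood cells. miR-144* had 787 and 1785 PMMR in chicken at HH20, 269.8 and 661 in chicken at HH25, 1305 and 1108 in quail at HH20 and HH25, 2274 and 1953 in duck at HH20, and 2272 and 1733 in duck at HH25. Over the same samples in that order miR-144 had 4.79, 9.36, 6.83, 5.48, 16.2, 3.55, 21.9, 32.8, 5.03 and 26.2 PMMR, the lowest of them resting on 11 reads. The strand named as the passenger was therefore the higher in 10 of 10 samples, with a geometric mean ratio of 12138% and single ratios between 3950.2% and 45176%. The log2 ratio was 6.99 (95% interval 6.24 to 7.74), with an adjusted p of 1.68e-07 from limma.

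miR-144* also exceeded miR-451 in 10 of 10 samples, by 2.17-fold to 13.9-fold. The fold was 9.06 to 13.9 in the 4 duck samples, 2.56 to 4.26 in the 4 chicken samples and 2.17 and 4.198 in quail, so that the duck samples lay above all others; this was noticed in the values and was not tested. The red blood cell markers miR-451 and miR-144, the latter from the hairpin of miR-144* itself, summed to 99.5 to 513 PMMR over the 10 samples. The first chicken sample at HH25 was lowest in this sum and in miR-144*. Among the 4 chicken samples, the second at HH20 was highest in both, with a sum of 465 PMMR, and those between lay in opposite order. The first duck sample at HH20 had the second lowest sum of all, 186 PMMR, with the highest miR-144*. The quail sample at HH25 had the highest sum with 1108 PMMR of miR-144*. The part of blood cells in the level of miR-144* was not tested, and in such tissue samples more cells of a type and more RNA per cell cannot be told apart.

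miR-2131*, from a hairpin that lies beside that of miR-2954 on chromosome Z, was above its partner in 10 of 10 samples as well. It had 116 and 182 PMMR in chicken at HH20, 213 and 151 in chicken at HH25, 42.6 and 45.5 in quail, 67.9 and 99.6 in duck at HH20, and 122 and 84.2 in duck at HH25, while miR-2131 ranged from 13.9 to 46.3 PMMR. The ratio had a geometric mean of 439.7%, and its log2 value was 1.90 (95% interval 1.48 to 2.33, adjusted p = 1.72e-05 from limma).

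miR-221*, the other strand of a miRNA known for repressing the cell cycle inhibitor p27, was close to its partner and mostly above it. miR-221* had 852 and 1437 PMMR in chicken at HH20, 533 and 467 in chicken at HH25, 1154 and 1088 in quail, 1514 and 660.4 in duck at HH20, and 1046 and 428 in duck at HH25. Its ratio was 152% in the mean and fell under 100% only in quail at HH20, at 88.6%. The test against 1 gave a log2 ratio of 0.56 (95% interval 0.13 to 0.99, adjusted p = 0.0188 from limma), and this call was lost when the first duck sample at HH20 was left out (adjusted p = 0.0512).

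miR-193b*, whose sequence is also that of miR-193a*, was low on both strands. It had 31.5 and 11.5 PMMR in chicken at HH20, 3.01 and 14.3 in chicken at HH25, 23.7 and 18.1 in quail, 13.6 and 9.39 in duck at HH20, and 3.78 and 11.9 in duck at HH25, against 2.65 to 13.9 PMMR of miR-193b. The ratio exceeded 100% in 7 of 10 samples, with a log2 value of 1.24 (95% interval 0.19 to 2.29, adjusted p = 0.0281 from limma). The call was lost without the first chicken sample at HH20 (adjusted p = 0.0523), the quail sample at HH25 (adjusted p = 0.0558) or the second duck sample at HH25 (adjusted p = 0.0704). Since the reads cannot be assigned to either hairpin, the ratio to miR-193b alone is an upper value.

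miR-460a* and miR-460 were at similar levels on average, and both swung widely. miR-460a* had 228 and 112 PMMR in chicken at HH20, 9.02 and 45.8 in chicken at HH25, 277 and 327 in quail, 358 and 136 in duck at HH20, and 52.2 and 39.6 in duck at HH25. The ratio was 106% in the mean and ranged from 25.1% to 301%, above 100% in 5 of 10 samples, and its log2 value was 0.08 (95% interval -0.47 to 0.63).

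miR-30e* and miR-19a* exceeded the partner in 1 sample each. For miR-30e* this was the second chicken sample at HH20, with 130.2% against 25.1% to 59.6% elsewhere, and for miR-19a* the first duck sample at HH25, with 120.4% against 28.5% to 81.9%. miR-135a-3*, miR-301* and miR-125b* had mean ratios of 40.1%, 28.6% and 26.3% without reaching the partner in any sample.

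The 3 lowest ratios were those of miR-20b*, let-7a* and miR-106*. For let-7a* the partner may come from more than 1 hairpin. miR-20b, of the cluster that promotes cell proliferation, was among the most abundant miRNAs at 21338 to 51597 PMMR, and miR-20b* had 19.4 and 15.8 PMMR in chicken at HH20, 15.8 and 8.19 in chicken at HH25, 18.9 and 12.6 in quail, 24.9 and 8.42 in duck at HH20, and 7.87 and 7.80 in duck at HH25. Its ratio stayed between 0.0262% and 0.0633%. let-7a* had 3.88 and 56.3 PMMR in chicken at HH20, 108 and 28.5 in chicken at HH25, 4.10 and 5.81 in quail, 1.48 and 7.99 in duck at HH20, and 8.81 and 11.7 in duck at HH25, so that its ratio ran from 0.00953% to 1.68% (second chicken sample at HH20), a 176-fold range. let-7c* likewise reached 1.29% in that second HH20 chicken sample and lay between 0.0251% and 0.397% in the others.

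The other strands lay below their partners in all samples and had ratios between these extremes. miR-15b*, from a hairpin of the miR-15 family that represses cell cycle and survival genes, had a ratio of 10.3% and 53.9% in chicken at HH20, 6.47% and 16.9% in chicken at HH25, 16.9% and 12.1% in quail, 4.10% and 10.8% in duck at HH20, and 1.91% and 4.35% in duck at HH25, a 28.3-fold range around a mean of 9.25%. miR-7-1*, whose partner is known from neurons and endocrine cells, ranged from 1.56% to 24.8% (mean 6.88%) and miR-27b* from 1.27% to 3.85% (mean 2.36%). miR-30c-1* and miR-30c-2*, measured against the same partner miR-30c, stood at 2.58% to 6.58% (mean 3.99%) and at 3.45% to 9.21% (mean 6.45%). miR-100*, miR-148a* and miR-30d* stayed under 2% throughout, with means of 0.712%, 0.636% and 0.244%, and their partners averaged 5843 PMMR or more. Without a listed partner, miR-135b* ranged from 5.33 to 161 PMMR and miR-193a* had the values of miR-193b*.

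Star strands of the same cluster of hairpins could lie far apart in ratio. In the cluster of miR-17 to miR-92a, miR-19a* stood at 53.6% of its partner in the mean, miR-18a* at 2.65% and miR-19b* at 2.52%. The partners miR-19a and miR-19b differ at 1 base, so their levels may depend on how reads were assigned, which was not tested. A second copy of miR-19b lies in the related cluster, so its ratio cannot be assigned to 1 cluster. In that cluster, which holds miR-106, miR-18b* stood at 1.08%, miR-106* at 0.103% and miR-20b* at 0.0395%. Of the neighbours miR-130a and miR-130b, miR-130a* stood at 2.49% and miR-130b* at 2.42%, while miR-301*, at 28.6%, matched 2 genes, 1 beside these and 1 beside miR-130c, and could not be placed, and of the neighbours on chromosome Z, miR-2131* at 439.7% and miR-2954* at 8.01%. The cluster neighbours are those within 20 kb in the GRCg7b annotation, where 29 of the 30 names were matched to a gene.

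Among star strands that already had a name the median ratio was 17.1% over 12 pairs, with 1 pair, that of miR-143*, under 1%. The paper describes miR-143* too as lacking an earlier chicken annotation, so the sets do not separate annotated from unannotated strands. The median ratio of the 3p and 5p arms was 58.3% over 7 pairs, with none under 1%. The ratio varied less across samples than the star strand itself in 11 of the 28 pairs, in 9 of the 12 named star pairs and in 5 of the 7 arm pairs. The median SD of the log2 ratio was 0.80 in the 28 pairs, 0.67 in the named star pairs and 0.55 in the arm pairs; these are descriptions, and no difference between the sets was tested.

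The spread between the samples of a group sets what could be seen of stage and species. The median pair differed between the second and the first sample by 0.86 on the log2 scale in chicken at HH20, 0.53 in chicken at HH25, 0.83 and 0.88 in duck at those stages. In chicken at HH20, 21 of 28 ratios were higher in the second sample. That sample had the highest ratio of all 10 samples for 9 of the 28 pairs and for 11 of all 47. The 9 were those of miR-15b*, miR-18a*, miR-18b*, miR-19b*, miR-20b*, miR-30e*, miR-130a*, let-7a* and let-7c*. Each sample is a separate pool of embryos, of 40 in first and 5 in second samples, with 2 pools a group at most. The p-values measure the spread between such pools. In the fits with species and stage as terms, that spread also takes in differences between species in the stage change. Quail has only a first sample at each stage, so it adds no spread within a group. In its comparisons, species and sample number are in part confounded.

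No ratio was found to change between HH20 and HH25 across the 3 species. limma with species as a term called 0 of the 28 pairs, and 0% of all 47, and 1 of the 28, also 1 of the 47, had an unadjusted p under 0.05; limma with precision weights from the reads (voom) also called 0. The ratio was lower at HH25 in 22 of the 28, with a median log2 difference of -0.34 against -0.10 over all 47 pairs. Between samples of the same number the median difference was -0.21 and -0.88 in chicken, 0.06 in quail, and -0.27 and -0.69 in duck.

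**Figure D3:**
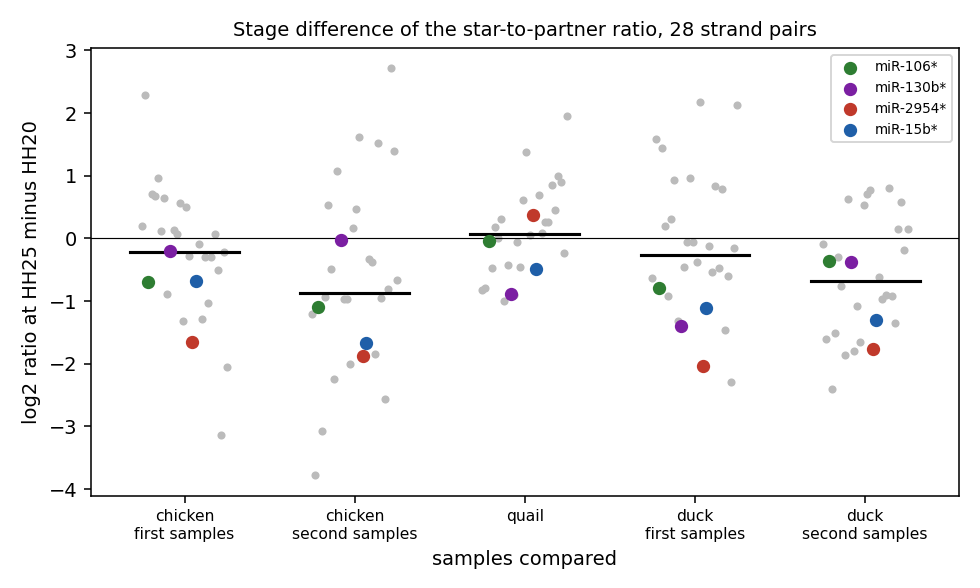
Log2 star-to-partner ratio at HH25 minus that at HH20 for the 28 pairs (grey points) in each of the 5 comparisons of same-numbered samples, with the median as a black bar and 4 strands in colour. The medians lie at -0.21, -0.88, 0.06, -0.27 and -0.69; miR-106*, miR-130b* and miR-15b* lie below 0 in all 5 comparisons, and miR-2954* in the 4 of chicken and duck only.

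miR-2954* had the lowest unadjusted p of stage. miR-2954* had 675 and 2071 PMMR in chicken at HH20, 368 and 79.5 in chicken at HH25, 909.5 and 588 in quail at HH20 and HH25, 1362 and 523 in duck at HH20, and 175 and 72.9 in duck at HH25. In chicken and duck every HH25 sample was thus below every HH20 sample, but quail was set aside here after its values were seen. The share of all miRNAs for that split was not counted. The quail sample at HH25 (588 PMMR) lay above the second duck sample at HH20 (523). With all 5 samples of each stage, 0 of the 30 levels lay apart between the stages, where 3.23% of the 186 miRNAs did. The ratio to miR-2954 was 9.61% and 17.5% in chicken at HH20, 3.07% and 4.73% in chicken at HH25, 7.24% and 9.38% in quail, 27.98% and 10.8% in duck at HH20, and 6.85% and 3.17% in duck at HH25. The fitted log2 difference of the ratio was -1.39 (95% interval -2.43 to -0.35, adjusted p = 0.536 from limma).

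The level of miR-2954* gave a log2 difference of -2.39 (standard error 0.59, adjusted p = 0.0523 from limma on log2(PMMR + 1) over 186 miRNAs), just short of the threshold of 0.05. It passed under 5 of the 9 other settings and in 3 of the 10 fits that left out a sample, which were those without the first chicken sample at HH25 (adjusted p = 0.00945) and without the quail sample at HH20 or at HH25 (adjusted p = 0.0322 and 0.0323). Whether the stage change of the ratio or the level differed in quail from chicken or from duck was tested on the 6 group means, and 0 of the 28 pairs and 0 of the 30 levels were called, with 0 at an unadjusted p under 0.05, where 0% of all pairs and of all levels were called.

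miR-106*, miR-15b* and miR-130b* were the strands whose ratio was lower at HH25 in all 5 comparisons of same-numbered samples. The 5 differences of miR-15b* were -0.67 and -1.68 in chicken, -0.48 in quail, and -1.11 and -1.31 in duck, and the fit gave -1.05 (95% interval -2.23 to 0.13). For miR-106* the fit gave -0.60 and for miR-130b* -0.58, both with an adjusted p of 0.536 from limma. No strand was higher in all 5. Of all 47 pairs, 4 were lower in all 5 comparisons and 1 was higher, so that 3 of 28 was near the background.

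Among levels, limma called 0 of the 30 strands for stage, where 3.23% of the 186 miRNAs were called, 1.61% higher and 1.61% lower. An unadjusted p under 0.05 was found for 31 of the 186 miRNAs and for 2 of the 30 strands, miR-2954* and miR-460a* (log2 difference -2.01, adjusted p = 0.120), and limma voom on the reads called 1, miR-2954*. miR-460a* passed only without the quail sample at HH20 or at HH25 (adjusted p = 0.0393 and 0.0400). The level of let-7a* showed a log2 difference of 1.28 with an interval from -0.32 to 2.88, so that no change and a 4-fold rise both lie within the interval.

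Between species, quail stood apart for 3 of the 28 ratios, which was near the background of 12.8% of the 47 pairs. For these, both quail samples lay outside the range of the 8 chicken and duck samples. miR-301* was higher in quail, and miR-106* and miR-2131* were lower.

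miR-301* is the star strand of a miRNA that shares its seed with miR-130 and has been linked to growth signalling. Its ratio was 42.4% and 38.9% in chicken at HH20, 17.4% and 29.9% in chicken at HH25, 87.0% and 92.0% in quail, 20.5% and 19.1% in duck at HH20, and 14.1% and 9.72% in duck at HH25. The level of miR-301* was 351 and 181 PMMR in quail and 78.7 to 152 PMMR in all other samples, while miR-301 was 404 and 197 PMMR in quail and 257 to 834 elsewhere. Duck was 5.88-fold below quail in ratio, a log2 difference of -2.56 (95% interval -3.44 to -1.67, adjusted p = 0.00350 from limma), and this held without each of the 10 samples (adjusted p of 0.0376 or less). Quail exceeded chicken by 1.56 on the log2 scale (adjusted p = 0.0663).

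miR-106* is the star strand of a miR-17 family member. Its ratio was 0.0857% and 0.219% in chicken at HH20, 0.0527% and 0.102% in chicken at HH25, 0.0334% and 0.0324% in quail, 0.258% and 0.202% in duck at HH20, and 0.149% and 0.157% in duck at HH25. Its level was 12.1 and 19.9 PMMR in chicken at HH20, 7.38 and 9.87 in chicken at HH25, 4.33 and 5.17 in quail, 28.2 and 25.4 in duck at HH20, and 20.4 and 17.3 in duck at HH25, and the quail values rest on 19 and 16 reads. miR-106 varied only between 9061 and 15973 PMMR. miR-106* was above 15 PMMR in 5 of the 10 samples, with neither quail sample among them. Since the study's threshold was more than 15 PMMR in at least 1 library, miR-106* was listed through duck and chicken values. A strand at the quail level in all samples would not have been listed, so the listing favoured a strand higher in duck than in quail. The p-value of that difference is therefore no independent support for it. Duck exceeded quail 5.69-fold in ratio, a log2 difference of 2.51 (95% interval 1.45 to 3.57, adjusted p = 0.00856 from limma), and without the quail sample at HH20 the adjusted p was 0.231.

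The comparison of duck with quail called 2 of the 28 pairs, miR-301* lower and miR-106* higher, where 6.38% of all 47 pairs were called. The call of miR-106* carries the limit of its listing through duck and chicken values. With the sample number as a block, limma called miR-15b* lower in duck as well (log2 difference -2.51, adjusted p = 0.00538), against an adjusted p of 0.211 without the block. The share of all 47 pairs called with the block is not given here.

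miR-2131* gave the only call of quail against chicken, 1 of the 28 pairs where 2.13% of the 47 were called. Its ratio was 833% and 394% in chicken at HH20, 716% and 1038% in chicken at HH25, 179.8% and 153% in quail, 409% and 552% in duck at HH20, and 367% and 485% in duck at HH25. Quail was 4.23-fold lower than chicken (log2 difference -2.08, 95% interval -3.06 to -1.10, adjusted p = 0.0387 from limma). The call was lost with the sample number as a block (adjusted p = 0.105), with precision weights (adjusted p = 0.0747) and in 9 of the 10 fits that left out a sample (adjusted p of 0.0559 to 0.354), the exception being the fit without the second chicken sample at HH20 (adjusted p = 0.00596).

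**Figure D4:**
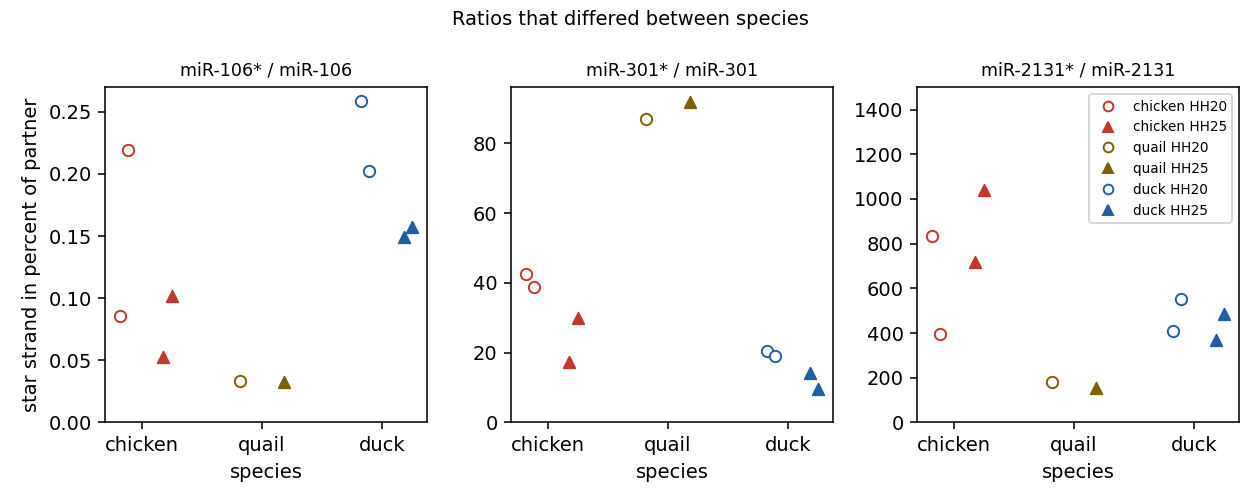
Star strand in percent of its partner in chicken, quail and duck for the 3 pairs called between species (each panel starts at 0), with open circles for HH20 and filled triangles for HH25. Both quail points lie below the rest for miR-106* (0.0334% and 0.0324%) and miR-2131* (179.8% and 153%) and above the rest for miR-301* (87.0% and 92.0%).

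Duck and chicken, the species with 4 samples each, gave no call. limma with stage as a term called 0 of the 28 ratios and 0% of all 47, with an unadjusted p under 0.05 for 7 of the 28 and for 11 of the 47, and limma with precision weights called 0. All 4 duck ratios lay on one side of all 4 chicken ratios for 3 of the 28 pairs, near the background of 12.8% of the 47 pairs. They were higher in duck for miR-100* (0.723% to 1.31% against 0.368% to 0.516%) and miR-125b* (26.3% to 40.2% against 17.1% to 22.2%) and lower for miR-130a* (0.756% to 2.63% against 2.73% to 8.54%). The log2 difference of miR-130a* was -1.60 (95% interval -2.62 to -0.59, adjusted p = 0.130), and without the first chicken sample at HH20 it was called (adjusted p = 0.0398). With the sample number as a block, limma called miR-15b* lower in duck (log2 difference -1.84, adjusted p = 0.0213), and the share of all 47 pairs called with it is not given here.

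Levels gave the same count. limma called 0 of the 30 strands between duck and chicken, where 9.68% of the 186 miRNAs were called, with an unadjusted p under 0.05 for 4 of the 30 and for 42 of the 186, and limma voom called 0. The median log2 difference was -0.29 over the 30 strands and 0.20 over all 186 miRNAs. miR-19a* was the only strand whose duck and chicken levels did not overlap, where 13.4% of the 186 miRNAs did not: it had 119 and 135 PMMR in chicken at HH20, 308 and 71.7 in chicken at HH25, 355 and 578 in duck at HH20, and 517 and 338 in duck at HH25, with 296 and 316 in quail. Its log2 difference was 1.66 (standard error 0.48, adjusted p = 0.0602 from limma) and that of miR-144* 1.53 (standard error 0.46, adjusted p = 0.0620 from limma). Without the first chicken sample at HH25 the log2 difference was 2.11 for miR-19a* and 1.13 for miR-144*. For miR-144* it was 1.91 without the second chicken sample at HH20.

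Duck and quail reads were mapped to chicken and human sequences, so a base that differs between the species and a different amount of the strand cannot be told apart in any of these comparisons. The difference between duck and chicken in the stage change of the ratio was tested as an interaction, and limma called 0 of the 28 pairs and 0% of all 47, with 0 at an unadjusted p under 0.05 and 0 called with precision weights.

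In the first chicken sample at HH25, some strands that stood far from the other samples in level kept a ratio within their range and others did not. miR-144* and miR-193b* were lowest there in level, at 269.8 and 3.01 PMMR, and also in ratio, at 3950.2% and 58.0%. This sample held the lowest ratio of all 10 samples for 5 of the 28 pairs and for 7 of all 47. miR-135a-3* rose there to 907 PMMR, against 32.2 to 129 in the other samples, and its partner miR-135a to 2707 PMMR, so that the ratio of 33.5% lay within the 16.01% to 68.5% of the others. miR-135b*, near-identical to miR-135a-3*, had 161 PMMR there and 5.33 to 25.6 elsewhere. miR-460a* and miR-460 were both lowest there, at 9.02 and 9.57 PMMR, with a ratio of 94.3%. let-7a* was highest there in level, but its highest ratio was in the second chicken sample at HH20, where let-7a was lowest at 3357 PMMR.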

How the data were processed

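Small RNA libraries from FNP mesenchyme (11 libraries, 10 samples) had been sequenced on an Illumina instrument. The deposited values are a signal in PMMR, which the authors obtained with miRanalyzer release 1 by aligning reads with 0 to 2 mismatches to chicken and human mature miRNAs of miRBase release 16 and scaling, in the paper's words, to mapped reads. The values are whole reads when multiplied by the total after adapter removal that each table gives, so that total is taken as the divisor. The study's threshold was more than 15 PMMR in at least 1 library, which 185 of the 186 listed miRNAs passed and miR-193b did not. Every value was a whole number of reads within 0.06 of a read, and a read was worth 0.0918 to 0.323 PMMR.

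Repeat runs of 1 chicken sample (the second at HH25) were averaged. Ratios were tested with limma 3.58.1 (R 4.3.3) on log2(star/partner) without a pseudocount, and levels on log2(PMMR + 1) with an intensity trend, so that fold changes of low strands are understated. Groups came from the labels, and species and stage were terms of each model. Benjamini-Hochberg adjustment ran over 47 pairs or 186 miRNAs with a threshold of 0.05, all tests were two-sided, and intervals are 95% intervals. Interactions of quail with stage were added after seeing the data. The fits were run on simulated data to check that they return the size of difference put in. The noise added there was independent and smaller than the spread between these samples, so this does not test the calls made here. Alternatives changed the pseudocount, filter, variance trend, centring, run, samples and block, and limma voom on the reads was added after seeing the data.

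The sample number (pools of 40 or of 5 embryos) was not a term of the main fits. It entered only as a block in 1 alternative setting, as if samples of the same number shared a preparation. Between groups, the differences of the second from the first sample correlated over all miRNAs at 0.61 (chicken and duck, HH20), 0.20 (chicken and duck, HH25), 0.25 (duck stages), 0.01 (chicken stages), -0.05 (chicken HH20 and duck HH25) and -0.01 (chicken HH25 and duck HH20). Over the ratios these were, in the same order, 0.79, 0.20, 0.06, -0.14, -0.26 and -0.01.

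The members, the pairs and the marker lists were chosen with earlier results of these data known. Named with full values were the 6 highest strands, those with a mean ratio of 1 or more, those called between stages or species, the 3 lowest ratios and near-identical strands; miR-15b*, miR-19a*, miR-100*, miR-130a* and others were named after their values were seen. Sequences are those of the deposited tables with U for T. Hairpin neighbours come from the RefSeq table of GRCg7b, as genes whose starts lie within 20 kb on the same chromosome. Python 3.11.15, numpy 2.4.6, pandas 2.3.3 and matplotlib 3.10.9 were used.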

Additional observations from a re-analysis of the deposited data

How the results depend on the processing

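Pools of 1 or 2 per group limit every comparison, and quail has no second sample. No member called in a main fit reversed in sign under any setting. Members that were not called could change sign. The log2 ratio of miR-460a* against 1 ran from -0.0756 to 0.242, and the stage change of the let-7a* ratio from -1.24 to 0.395. No member ratio was called for stage or for the duck and chicken interaction under any setting that was run. Against a ratio of 1, 27 members were called, where 97.9% of all pairs were called, with 23 to 27 under other settings and 26 to 27 when 1 sample was left out. The 23 came with both strands at 15 PMMR or more, where miR-106*, miR-144*, miR-193b* and miR-20b* were not tested. With the sample number as a replicate block, called ratios rose from 0 to 1 between duck and chicken (miR-15b*) and from 2 to 3 between duck and quail. They fell from 1 to 0 between quail and chicken. The share of all pairs called with the block is not given here, so these counts are not set against a background. The block was not applied to the test against 1, which has no contrast between samples and already compares both strands within a library. Quail against chicken gave 2 with both strands at 15 PMMR or more and 2 with run 1 alone, each adding miR-301* (adjusted p = 0.0481 and 0.0444), and 0 with precision weights. Duck against quail gave 1 with both strands at 15 PMMR or more, since miR-106* at a mean of 14.995 PMMR was not tested there. Leaving out 1 sample gave 0 to 1 for duck against chicken, 0 to 1 for quail against chicken and 1 to 3 for duck against quail.

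The stage change of levels called 0 members, and 1 (miR-2954*) with a pseudocount of 10 PMMR, with median-centred libraries, with a mean of 15 PMMR or more, with limma voom and with run 1 alone. Leaving out 1 sample gave 0 to 2, and the adjusted p of miR-2954* ran from 0.00945 to 0.159. Duck against chicken levels called 0, and 0 to 2 when 1 sample was left out. Over all 186 miRNAs median-centring called 16 for stage instead of 6, and 42 differed between duck and chicken without the first chicken sample at HH25 instead of 18. The limma voom settings were chosen after seeing the data. A planned negative binomial test of the recovered reads was not run, and limma voom on those reads took its place. The causes of these changes were not tested.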
